A study of Homo sapiens and Mus musculus with 12 samples.

Results

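The binding sites of GFI1 in THP1 cells were compared with those in control K562 cells, to see which sites, genes and sequence motifs the 2 leukemia lines had in common. Every interval in either GFI1 peak list was a member. There were 3461 in THP1 and, in K562, 81 that overlapped a THP1 peak and 417 that did not, together 3959 of the 12513 peaks in the 5 peak lists analysed. Peaks of different lists that shared at least 1 bp were classed as "both", and all others as "THP1 only" or "K562 only". THP1 is a human monocytic leukemia line, for which the labels give no sgRNA. K562 is a human leukemia line with erythroid and megakaryocytic features. The K562 cells carried a stably expressed, puromycin-selected Cas9 and a non-targeting sgRNA (sg-NT). Both lines were crosslinked with DSG plus formaldehyde, and each ChIP took equal cell numbers and 5 μg of anti-GFI1 antibody.

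Each line had 1 GFI1 library. Line, Cas9 and sgRNA, library and depth of calling therefore cannot be told apart, and no test between libraries was made. Intervals in parentheses are 95% Wilson intervals for a share and 95% Newcombe intervals for a difference of shares, and they cover counting error only. The lists hold peaks and no expression values, so the identity of the lines was not checked against marker genes.

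GFI1 is a zinc-finger repressor of hematopoietic transcription. Its SNAG domain recruits the histone demethylase LSD1 with the CoREST complex, and its zinc fingers recognise DNA with an AATC core. It is best known for its role in granulocyte and lymphoid development, while its close relative GFI1B acts in erythroid cells and megakaryocytes. GATA factors are the main activators of the erythroid program, and SPI1 (PU.1) and C/EBP factors those of the monocytic and granulocytic programs.

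The reference sequence at the strongest sites is shown as examples of the motif cores and does not stand for whole classes. The 50 bp around the summit are given for the 4 strongest peaks of each class by −log10 p, from GRCh38, plus strand, 5′ to 3′. The site is named for its nearest protein-coding gene, and capitals mark a motif core on either strand. Of the 4 strongest THP1 only windows, those of SMAP2 and STAB1 held the GFI1 core (AATCAC, or GTGATT on the other strand).
SMAP2, chr1:40344817-40344866: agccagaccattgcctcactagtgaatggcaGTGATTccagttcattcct
STAB1, chr3:52498944-52498993: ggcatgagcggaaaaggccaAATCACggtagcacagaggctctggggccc
ALG14, chr1:95072668-95072717: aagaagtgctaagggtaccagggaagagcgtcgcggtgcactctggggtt
SPRED1, chr15:38130871-38130920: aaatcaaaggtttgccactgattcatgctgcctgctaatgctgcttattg

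Among the sites called in both lines, shown at their K562 summits and ranked by the smaller of the −log10 p values of each site, the TIGAR window held a GATA core. The IBA57 window held the GFI1 core at 2 places.
TIGAR, chr12:4320915-4320964: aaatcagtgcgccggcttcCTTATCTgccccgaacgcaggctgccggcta
IBA57, chr1:228164645-228164694: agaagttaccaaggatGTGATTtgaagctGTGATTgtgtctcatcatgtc
FBXO21, chr12:117189791-117189840: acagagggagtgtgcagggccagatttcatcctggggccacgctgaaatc
NBPF1, chr1:16612744-16612793: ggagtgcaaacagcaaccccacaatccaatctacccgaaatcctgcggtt

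None of the 4 strongest K562 only windows held the GFI1 core. The SPTAN1 window held a GATA core and the PI16 window a RUNX core.
SPTAN1, chr9:128558493-128558542: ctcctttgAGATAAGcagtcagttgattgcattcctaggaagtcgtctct
PI16, chr6:36954348-36954397: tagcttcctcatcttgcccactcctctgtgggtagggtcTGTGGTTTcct
CRY2, chr11:45826707-45826756: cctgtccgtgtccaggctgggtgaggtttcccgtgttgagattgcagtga
TPTE, chr21:8990817-8990866: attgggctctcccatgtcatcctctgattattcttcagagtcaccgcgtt

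GFI1 was called at mostly different places in THP1 and K562 cells. Only 81 sites were called in both lines, each pairing 1 THP1 peak with 1 K562 peak. They were 2.34% of the THP1 peaks (interval 1.89 to 2.90) and 16.3% of the K562 peaks (interval 13.3 to 19.8), which left 3380 THP1 only and 417 K562 only peaks. Few of the others were near misses, as 32 of the 417 K562 only summits (7.67%) had a THP1 summit within 10000 bp. The THP1 list is the longer and covered 1633714 bp against 188693 bp for K562. When the THP1 list was shortened to its strongest peaks, as many as K562 has, 37 sites were shared, 7.43% of each list (interval 5.44 to 10.1).

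Strong peaks were called in both lines more often than weak ones. Each list was ranked by −log10 p and divided into 4 groups. In THP1, 47 of the 865 peaks in the strongest group had a K562 counterpart (5.43%), against 9 of 866 in the weakest (1.04%), with intervals of 4.11 to 7.15 and 0.548 to 1.96. In K562, 27 of the 124 peaks in the strongest group had a THP1 counterpart (21.8%, interval 15.4 to 29.8), against 12 of 125 in the weakest (9.60%, interval 5.58 to 16.03). Even among the strongest K562 peaks, most therefore had no peak in the longer THP1 list.

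**Figure D1:**
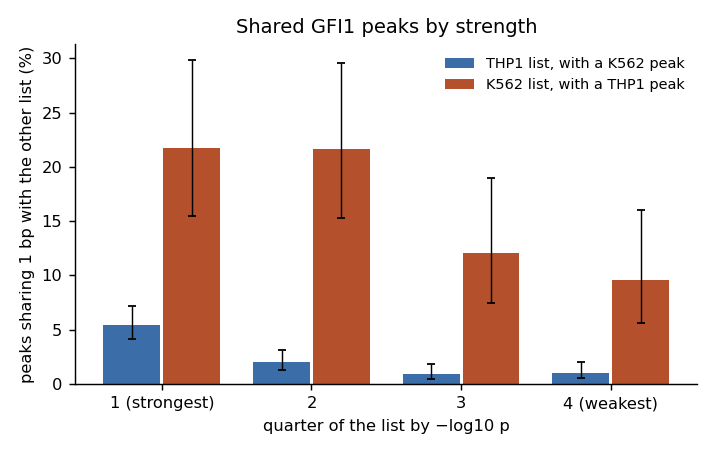
Share of GFI1 peaks (y axis, %) that share 1 bp with a peak of the other line, for 4 groups of each list from strongest to weakest by −log10 p (x axis). Bars are shares and error bars 95% Wilson intervals for counting error. The share falls from 5.43% to 1.04% in the THP1 list and from 21.8% to 9.60% in the K562 list between the strongest and weakest groups.

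Set side by side, THP1 only and K562 only peaks were of similar strength. The median −log10 p was 11.4 for THP1 only and 10.6 for K562 only peaks, and the median fold over local background was 7.35 and 6.89. The shared sites were stronger in each list, with a median −log10 p of 19.6 in THP1 and 13.1 in K562, as a description of peaks that had to be called in both lists. Fragment numbers were solved from fold and −log10 p, because the lists hold no read totals. Over a summit they had a median of 12 for THP1 only and 11 for K562 only peaks, on a genome-wide background of 0.484 fragments in THP1 and 0.451 in K562. At this depth a site of weak enrichment is not detectable, so the absence of a peak does not show the absence of GFI1.

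THP1 only peaks lay at promoters far more often than K562 only peaks. Promoter here means a summit at most 1000 bp from where a protein-coding transcript begins. Of the THP1 only summits, 25.7% were promoter summits (869 of 3380, interval 24.3 to 27.2), against 8.39% of the K562 only summits (35 of 417, interval 6.10 to 11.4). The difference, K562 only minus THP1 only, was -17.3 percentage points (interval -20.1 to -13.9). The shared sites resembled the THP1 only peaks, with 29.6% at promoters by their THP1 summits (interval 20.8 to 40.3) and 30.9% by their K562 summits. Their difference from the K562 only peaks was 22.5 points (interval 13.0 to 33.4).

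K562 only peaks lay more often in introns, and by the median they were farther from protein-coding starts. Introns held 45.1% of them (188 of 417, interval 40.4 to 49.9) and 32.8% of the THP1 only summits (1109 of 3380, interval 31.2 to 34.4). The median distance to the nearest protein-coding start was 18.9 kb for K562 only, 10.4 kb for THP1 only and 6.31 kb for the THP1 summits of shared sites. Summits 10 to 50 kb from a start were 40.3% of the K562 only and 28.1% of the THP1 only peaks. Summits more than 50 kb from a start were 25.7% of the K562 only and 22.8% of the THP1 only peaks, a difference within the counting intervals. CpG-rich sequence went with the promoters. At least 10 CpG in 200 bp were found at 20.6% of THP1 only and 6.95% of K562 only summits, while median GC content was 48.3% and 48.0%. Among THP1 only promoter summits the CpG-rich share was 56.0%, and among those of K562 only 34.3%.

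**Figure D2:**
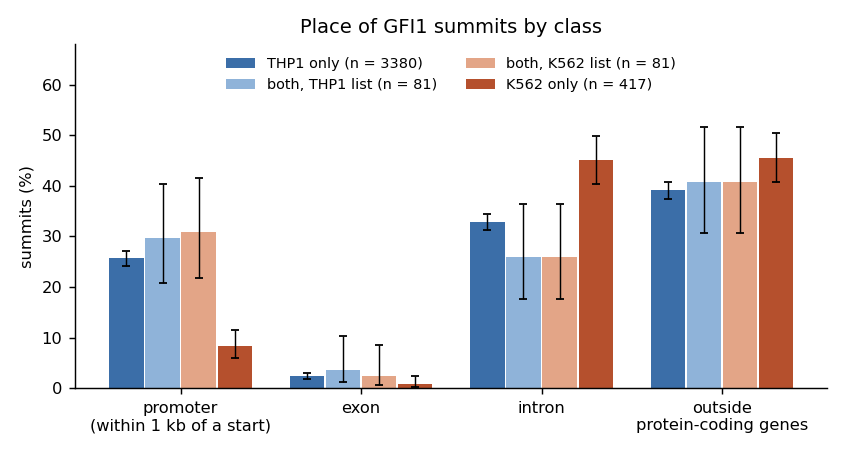
Place of the GFI1 summits (x axis) as a share of each class (y axis, %), with 95% Wilson intervals for counting error as error bars. The 81 shared sites are placed by their THP1 and by their K562 summits. Promoters hold 25.7% of THP1 only and 8.39% of K562 only summits, and introns 32.8% and 45.1%.

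The GFI1 core was more frequent at the summits of every class than nearby, while GATA cores were more frequent in K562 only than in THP1 only peaks. A rare SPI1-type ETS core was found in THP1 only but not in K562 only windows of 50 bp. Cores were searched as fixed letters in 50 bp around the summit and in windows 2000 bp up- and downstream. The GFI1 core AATCAC was in 10.0% of THP1 only windows (339 of 3380, interval 9.06 to 11.1) against 2.34% of their flanks. It was in 7.67% of K562 only windows (32 of 417, interval 5.49 to 10.6) against 3.597% (interval 2.53 to 5.09). In all 50 bp tiles of the genome it was in 2.66%. At the shared sites 21.0% of the windows at K562 summits held it (interval 13.5 to 31.1) and 12.3% of those at THP1 summits (interval 6.85 to 21.3). The THP1 interval overlapped that of its flanks (1.71 to 7.84), and the K562 interval did not (0.964 to 6.18). The difference between K562 only and THP1 only was -2.36 points (interval -4.78 to 0.757), which includes 0 in these windows. It was larger and its interval left out 0 in 200 bp windows (-8.51 points, interval -12.3 to -4.21), with lists of equal length (-6.72, interval -10.9 to -2.53) and with a shorter core (-5.54, interval -10.5 to -0.451).

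A longer form of the GFI1 core, AATCACNGC, separated summit from flank more sharply. It was in 3.67% of the THP1 only windows and 0.133% of their flanks. At the shared sites it was in 9.88% of the windows at THP1 summits and 8.64% at K562 summits. Of the K562 only windows 1.68% held it, against 0.5995% of their flanks, with overlapping intervals of 0.815 to 3.42 and 0.256 to 1.40. The difference between the classes in this longer core was -1.99 points (interval -3.09 to -0.150). The short core was also tied to strength. From the strongest to the weakest group it fell from 15.7% to 6.24% of the THP1 windows and from 18.5% to 1.60% of the K562 windows.

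GATA cores marked the K562 only peaks. The core searched was GATAA with A or T in front of it and A or G behind it, on both strands. It was in 12.5% of K562 only windows (52 of 417, interval 9.64 to 15.99) against 2.64% of the flanks, and in 2.28% of THP1 only windows (77 of 3380, interval 1.83 to 2.84) against 2.78% of theirs. The share of genome tiles was 3.73%. The difference was 10.2 points (interval 7.30 to 13.7), and 10.5 points (interval 7.36 to 14.3) when promoters were left out. The shared sites were like the K562 only peaks, with 13.6% at K562 summits and 9.88% at THP1 summits. The GATA share did not follow strength in K562, where it was 10.5% in the strongest and 10.4% in the weakest group.

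Within 200 bp the contrast in GATA cores was wider in percentage points. They were found at 42.4% of K562 only summits (177 of 417) and at 8.91% of THP1 only summits (301 of 3380). The GFI1 and GATA cores stood together within 200 bp at 32 of the 417 K562 only summits (7.67%) and 87 of the 3380 THP1 only summits (2.57%). The GATA cores of K562 only peaks were also more frequent where LSD1 was called. They were in 14.9% of the 323 windows at an LSD1 peak of K562 (interval 11.4 to 19.2) and in 4.26% of the 94 windows without such a peak (interval 1.67 to 10.4).

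The SPI1-type ETS core GAGGAAGT was found at THP1 only peaks. It was in 1.75% of their windows (59 of 3380, interval 1.36 to 2.24), 0.281% of the flanks and 0.226% of the genome tiles. It was in 0 of 417 K562 only windows, which by the Wilson interval allows a share of up to 0.913%. The difference was -1.75 points (interval -2.24 to -0.753). The shared sites held it in 1 of 81 windows at THP1 summits and 2 of 81 at K562 summits. Within 200 bp it was at 8.64% and 7.41% of the shared summits and at 5.77% of THP1 only summits. Of the K562 only summits, 2.64% had it within 200 bp (11 of 417, interval 1.48 to 4.66). The C/EBP core TTGCNNAA was in 5.36% of THP1 only windows against 2.34% of flanks, and in 3.84% of K562 only windows against 2.28%. Its difference of -1.52 points (interval -3.19 to 0.893) includes 0. In 200 bp windows it was -9.38 points (interval -12.2 to -5.95) and with lists of equal length -3.90 (interval -7.01 to -0.920), and neither interval includes 0.

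For the other 3 cores the interval of the difference included 0 in 50 bp windows. RUNX cores (TGTGGTTA and TGTGGTTT) were in 1.63% of THP1 only and 1.92% of K562 only windows, against 0.533% and 0.719% of their flanks. AP-1 cores (TGACTCA and TGAGTCA) were in 1.75% and 3.12%, with a difference of 1.37 points (interval -0.00830 to 3.55). The ETS core CCGGAAG was in 0.355% and 0.480%. Some of these differences had intervals without 0 under other settings. In 200 bp windows the AP-1 difference was 4.16 points (interval 1.45 to 7.54) and the RUNX difference 2.60 (interval 0.0454 to 5.85). With summits at most 200 bp apart counted as shared, AP-1 differed by 1.74 points (interval 0.282 to 3.98), and with a shorter core by 2.43 (interval 0.226 to 5.36). A shorter form of the ETS core differed the other way, by -4.50 points (interval -7.96 to -0.485). A match says only that these letters lie in the window and does not show that a factor binds there. At least 1 of the 7 cores was in 21.2% of THP1 only and 27.8% of K562 only windows.

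**Figure D3:**
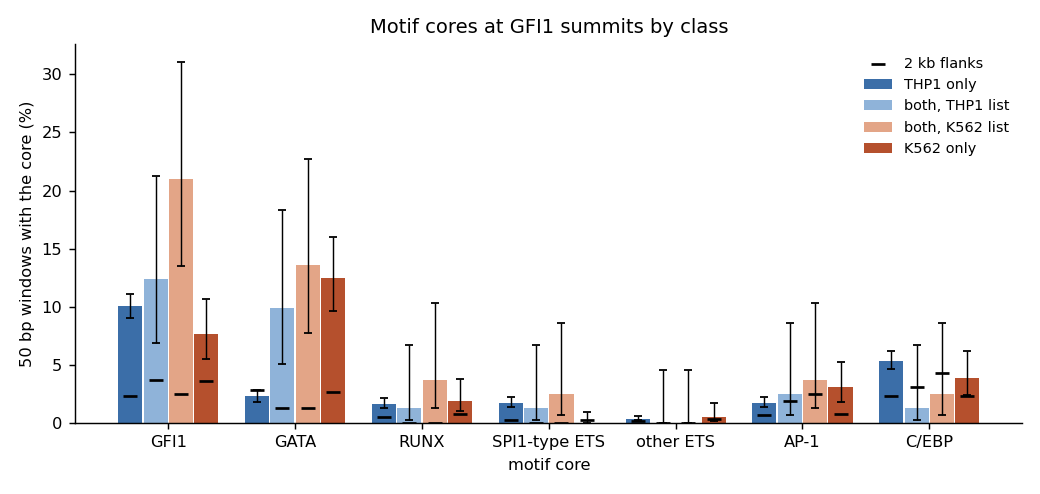
Share of 50 bp summit windows that hold each motif core on either strand (y axis, %), for 7 cores (x axis) and each class of GFI1 peaks. Error bars are 95% Wilson intervals for counting error and black dashes the share in windows 2000 bp away. GATA cores are in 12.5% of K562 only and 2.28% of THP1 only windows, and the GFI1 core is in 10.0% and 7.67%.

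LSD1 was called in K562 cells at most GFI1 sites of K562 and at few GFI1 sites of THP1. An LSD1 peak overlapped 78.3% of all K562 GFI1 peaks and 8.7% of all THP1 GFI1 peaks. By class, it was 77.5% of K562 only peaks (323 of 417, interval 73.2 to 81.2), 82.7% of shared sites (67 of 81, interval 73.1 to 89.4) and 6.92% of THP1 only peaks (234 of 3380, interval 6.12 to 7.83). The share among THP1 only peaks was 12.9% at promoters and 4.86% elsewhere. LSD1 peaks at K562 GFI1 sites were also stronger. Their median −log10 p was 24.2 at K562 only and 25.8 at shared sites, against 11.3 at THP1 only peaks and 11.3 over all 6548 LSD1 peaks. LSD1 of THP1 cells was not analysed here.

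SPI1 in THP1 cells overlapped few GFI1 peaks, nearly all of them in the THP1 list. Of the THP1 only peaks 5.59% shared at least 1 bp with an SPI1 peak (189 of 3380, interval 4.87 to 6.42), of the shared sites 4.94% by their THP1 peaks, and of the K562 only peaks 0.480% (2 of 417). Among THP1 only peaks the share was 6.77% outside promoters and 2.19% at promoters. GFI1 peaks in K562 cells with the sgRNA against LSD1 (sg-LSD1), a list of 160 peaks, were at 18.5% of the shared sites by their K562 peaks (interval 11.6 to 28.3). The same list covered 8.63% of K562 only peaks (interval 6.30 to 11.7) and 0.680% of THP1 only peaks (interval 0.454 to 1.02).

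**Figure D4:**
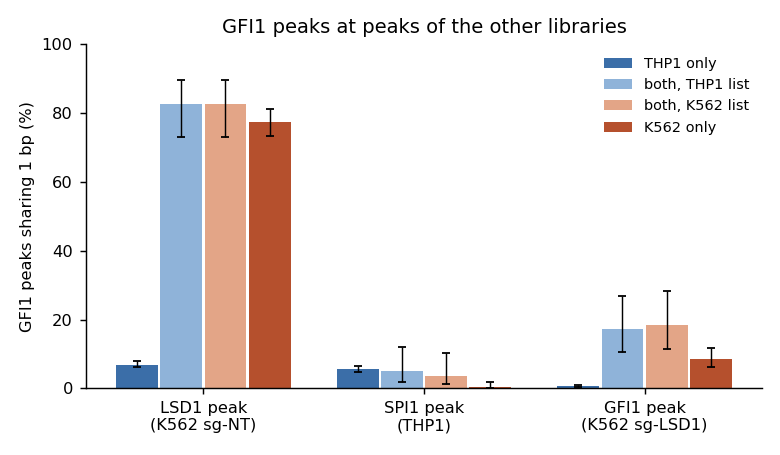
Share of GFI1 peaks of each class (y axis, %) that share at least 1 bp with an LSD1 peak of sg-NT K562 cells, an SPI1 peak of THP1 cells or a GFI1 peak of sg-LSD1 K562 cells (x axis). Error bars are 95% Wilson intervals for counting error. LSD1 peaks lie at 77.5% of K562 only and 82.7% of shared sites but at 6.92% of THP1 only peaks.

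The strongest THP1 only peaks lay near genes of varied function. The first was at the start of SMAP2, which encodes a GTPase-activating protein for Arf, with 272 fragments over the summit (fold 35.9, −log10 p 327). It lies in a stretch of chromosome 1 where the THP1 local background was raised. From 39000000 to 40999999 there were 53 THP1 peaks and 0 K562 peaks, and the median local background at these peaks was 5.30 fragments against 0.6001 over all THP1 peaks. The peaks of this stretch had a median fold of 5.39. ELOVL1, a fatty acid elongase (−log10 p 98.1), also had a raised local background, of 3.60.

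The next strongest THP1 only peak was in an intron of STAB1, a scavenger receptor of macrophages, and had the larger fold of 50.5 (−log10 p 133). Its local background was at the genome-wide level, and so was that of the peak at the start of RGMB, a co-receptor for bone morphogenetic proteins (fold 41.1). The peak near HLX, a homeobox factor of blood cell development, lay 218.1 kb from its start (fold 40.4) and held the GFI1 core. ALG14, an enzyme subunit of N-glycosylation, had a fold of 41.2. The peak nearest to SPRED1, an inhibitor of RAS signaling, lay 121.9 kb from its start (fold 37.2). ERC1, a scaffold protein, had an intron peak with a fold of 31.4, in a window with 2 copies in the genome. None of these 8 peaks lay at a K562 LSD1 peak, beside 6.92% of all THP1 only peaks. At a THP1 SPI1 peak lay 2 of them, those of SMAP2 and ELOVL1.

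All 8 of the strongest K562 only peaks lay at an LSD1 peak of the same cells. So did 119 of the 124 K562 peaks in the strongest group (96.0%) and 69 of 125 in the weakest (55.2%). The first was in an intron of SPTAN1, which encodes a spectrin of the membrane skeleton, with 80 fragments (fold 55.8, −log10 p 149). PI16, a peptidase inhibitor, had a promoter peak with a fold of 27.1. Both were called again in sg-LSD1 cells. The peak nearest to CRY2, a repressor of the circadian clock, lay 20.4 kb from its start (fold 22.6). NR1H2, the oxysterol receptor LXR beta, had an intron peak with a fold of 20.8. The peaks near CLEC16A (fold 20.7), CHST6 (14.2 kb from its start, fold 19.0) and IFT46 (fold 17.6) followed. The peak assigned to TPTE was unusual in its width of 5928 bp and lay 1530.7 kb from that gene on chromosome 21.

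Some genes were nearest to GFI1 peaks of both lines, at the same site or at different sites. Of 19321 protein-coding genes, 13.8% were the nearest gene of a THP1 peak (2675 genes) and 2.4% of a K562 peak (464 genes). Genes of both lists numbered 179 (0.926% of all genes), which was 38.6% of the K562 genes and 6.69% of the THP1 genes. Of these, 78 had a site called in both lines (0.404% of all genes) and the other 101 had peaks at different places only. With lists of equal length, 13.1% of the K562 genes were also THP1 genes (interval 10.4 to 16.5), beside 7.43% of the sites. A shared site mostly gives the same gene to both lists, and peaks at different sites can only add genes. A larger share of genes than of sites therefore follows largely from the way of counting.

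For 104 genes, a THP1 only and a K562 only peak had the same nearest gene. The median distance between the strongest of these peaks was 43.5 kb. The K562 peak lay at a K562 LSD1 peak for 80 of the genes (76.9%), beside 77.5% of all K562 only peaks, and the THP1 peak for 12 (11.5%), beside 6.92% of all THP1 only peaks. The highest by the smaller −log10 p was ZNRF2, a ubiquitin ligase gene, with a fold of 21.6 in THP1 and 17.9 in K562 at sites 14.4 kb apart, both upstream of its start. The THP1 and K562 sites of RNF130, another ubiquitin ligase gene, were 3.15 kb apart, with folds of 11.5 and 11.7.

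The GFI1 gene itself followed in this order. In THP1 its nearest strong peak was at its own promoter, 0.329 kb upstream of the start (chromosome 1, 92485642 to 92486692, fold 10.9, −log10 p 21.2). In K562 the only peak assigned to it lay 58.0 kb upstream in an intron of a neighboring gene (92544753 to 92545096, fold 11.4, −log10 p 19.97). GFI1 had 5 THP1 peaks in all, and the K562 site alone was at an LSD1 peak. Next in order were PRICKLE1, a planar cell polarity gene (sites 159.3 kb apart), NR2F2, an orphan nuclear receptor gene (157.5 kb), TNRC18 (33.1 kb) and RSU1, a Ras suppressor gene (149.4 kb). They were followed by ZNF608 (184.3 kb), NECAP2, a gene of clathrin adaptors (13.9 kb), and SLC25A37, which encodes the mitochondrial iron importer mitoferrin (65.0 kb). At all 10 of these genes the K562 peak lay at an LSD1 peak, beside 77.5% of all K562 only peaks. At RNF130 the THP1 peak did too.

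Genes of the monocyte and macrophage program were common near THP1 peaks. They are 1 of 12 gene lists written by hand from general knowledge or by gene name, which are described by counts only. Of 40 such genes, 17 (42.5%) were the nearest gene of a THP1 peak and 1 of a K562 peak, beside 13.8% and 2.4% of all genes. Of the 24 THP1 only peaks behind this count, 4 were at promoters and 6 at SPI1 peaks of THP1. Their median −log10 p was 16.4, beside 11.4 over all THP1 only peaks. The strongest was 21.0 kb downstream of the start of CD14, the co-receptor for lipopolysaccharide, with −log10 p 45.4 and fold 21.4. LYZ, which encodes lysozyme, had a site 10.1 kb upstream (fold 17.1), and CSF1R, the receptor for macrophage colony-stimulating factor, a site in an intron (fold 17.5). These 3 sites were all at SPI1 peaks. NCF1, a subunit of the phagocyte oxidase, had a fold of 15.0, and MRC1, the macrophage mannose receptor, 14.8. With gene bodies and 10000 bp on either side in place of the nearest start, 10 of the 40 genes (25%) had a THP1 summit, beside 13.7% of all genes.

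The site called in both lines for this list was in an intron of FCGR1A, the high-affinity receptor for IgG. It had a fold of 7.73 in THP1 and 7.93 in K562.

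Genes of neutrophil granules and of granulocytes were also counted. Of 25, 8 (32.0%) were nearest to a THP1 peak, beside 13.8% of all genes, and 1 (4.0%) to a K562 peak, beside 2.4%. The 8 were the granule protein genes MPO, BPI, PRTN3 and RNASE3, the transcription factor genes CEBPB, CEBPD and CEBPE, and CXCR2, which encodes a chemokine receptor. MPO, which encodes myeloperoxidase, had a peak 1.02 kb upstream with a fold of 16.2, and the promoter of BPI, a bactericidal protein, a peak with a fold of 10.8. PRTN3, the gene of the serine protease proteinase 3, had 1 THP1 peak in an intron (fold 10.3, −log10 p 17.7, chromosome 19, 841845 to 842382). Within 10000 bp of PRTN3 there were 0 K562 peaks that passed the calling threshold, and the nearest K562 summit lay 106.7 kb from the gene. Signal below that threshold was not analysed here. AZU1, ITGAM and CD86 had 0 peaks in either list within 10000 bp of the gene. From coverage tracks, the paper reports GFI1 at ITGAM and CD86 in THP1. It also reports GFI1 with LSD1 at sites near PRTN3 in control K562 cells. Those tracks were not analysed here. The gene nearest to a peak of both lines was CEBPE, a transcription factor needed for granule formation. Its site, 6.37 kb from the start by the K562 summit, had a fold of 24.1 in K562 and 6.43 in THP1, with −log10 p values of 54.6 and 11.9.

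Erythroid genes were the only list of the 12 with more genes near K562 than near THP1 peaks. Of 42, 6 (14.3%) were nearest to a K562 peak and 4 (9.52%) to a THP1 peak, beside 2.4% and 13.8% of all genes. The K562 peaks were nearest to RHD, the Rh blood group antigen (fold 10.3), SLC25A37 (fold 9.15) and ZFPM1, which encodes the GATA1 cofactor FOG1 (fold 6.89). The others were nearest to RHAG, the Rh-associated glycoprotein (fold 5.91), ANK1, which encodes erythrocyte ankyrin (fold 4.13), and LMO2, a bridging factor of GATA1 complexes (fold 4.12). The distances of these 6 peaks from the starts ran from 7.47 kb at RHD to 44.5 kb at ZFPM1. The ANK1 and LMO2 peaks were barely above the calling threshold, with −log10 p of 5.10 and 5.07. All but that of LMO2 were at LSD1 peaks, beside 77.5% of all K562 only peaks, and none was at a promoter. The THP1 peaks were nearest to SLC25A37 (fold 9.37), SLC4A1, the band 3 anion exchanger (fold 6.82), GYPC, which encodes glycophorin C (fold 5.93), and NFE2, an activator of globin genes (fold 4.72). They lay from 0.497 kb (GYPC) to 30.3 kb (SLC25A37) from the starts. Only SLC25A37 was common to both, at different sites. With gene bodies and 10000 bp, the lead was gone and 4 genes were found for each line.

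Counted by nearest start, genes of megakaryocytes and platelets were near the shares over all genes. Of 20, 3 (15.0%) were nearest to a THP1 peak, beside 13.8%, and 1 (5.0%) to a K562 peak, beside 2.4%. GP5, a platelet glycoprotein gene, had a fold of 15.5 in THP1, SELP, which encodes P-selectin, 14.1, and the regulator FLI1 4.85. In K562 the promoter of GP1BB, another platelet glycoprotein gene, had a fold of 6.31. Counted by gene bodies and 10000 bp, 5 of the 20 genes had a THP1 summit, beside 13.7% of all genes. This was the same share as for the monocyte and macrophage genes by that count. The K562 count stayed at 1, beside 2.13% of all genes.

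Transcription factor genes of hematopoiesis were the list with the largest share near THP1 peaks among the 12 lists counted. Of 35, 21 (60%) were nearest to a THP1 peak and 5 (14.3%) to a K562 peak, beside 13.8% and 2.4% of all genes. TCF7L2, a mediator of Wnt signaling, had the strongest THP1 site, 168.7 kb from its start, with a fold of 17.8. STAT3 had a fold of 17.2, and MYB, a regulator of progenitors, an intron site with 12.3. ZEB2, a repressor with roles in several blood lineages, had its strongest THP1 site 890.6 kb away (fold 17.3) and a K562 site 11.1 kb away in an intron (fold 6.82). CBFA2T3, which encodes the ETO2 corepressor of erythroid genes, had the strongest K562 site of the list, with a fold of 11.7. The list's THP1 only peaks had a median −log10 p of 11.6, close to the 11.4 over all THP1 only peaks. With gene bodies and 10000 bp, the counts were 15 (42.9%) and 3 (8.57%), beside 13.7% and 2.13% of all genes, and signaling and cell cycle genes had the largest share near THP1 peaks, 13 of 30 (43.3%).

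KLF6 had a site in both lines, in an intron, with a fold of 5.45 in THP1 and 7.58 in K562. It was not at an LSD1 peak. Signaling and cell cycle genes had 17 of 30 (56.7%) near a THP1 peak, beside 13.8% of all genes, and 2 (6.67%) near a K562 peak, beside 2.4%. The strongest THP1 sites were those of DUSP1 (fold 12.8) and SPRY2 (fold 10.9), both inhibitors of MAP kinase signaling, and FLT3, a receptor kinase of progenitors (fold 7.27). In K562 they were DUSP6, a phosphatase of the same pathway (fold 7.50), and BCL2L11, the cell death gene BIM (fold 5.81).

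Genes listed as known targets of GFI1 or GFI1B were near peaks of both lines. Of 38, 13 (34.2%) were nearest to a THP1 peak and 6 (15.8%) to a K562 peak, again beside 13.8% and 2.4%. At 3 of them the same site was called in both lines. Each of the 3 was at a K562 LSD1 peak, beside 82.7% of all shared sites. These were CEBPE, ID2 and ID3, the last 2 encoding inhibitors of helix-loop-helix factors. The promoter site of ID2 had a fold of 8.67 in THP1 and 8.27 in K562, and that of ID3 22.2 and 8.24. GFI1B had a K562 site 17.7 kb downstream of its start (fold 7.58, at an LSD1 peak) and no THP1 peak. Of the 17 genes of the GFI1 family and the LSD1-CoREST complex, 4 (23.5%) were near THP1 peaks (GFI1, GSE1, INSM1 and SNAI1) and 3 (17.6%) near K562 peaks (GFI1, GFI1B and GSE1), beside the same shares of all genes. By gene bodies and 10000 bp these counts were 2 (11.8%) and 1 (5.88%), beside 13.7% and 2.13% of all genes. The lists overlap in members, and GFI1 and GFI1B are counted in both of the last.

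At the 81 shared sites the summits lay close together, with a median gap of 45.0 bp, and 44 were within 50 bp of each other. Fragments over the summit, divided by the genome-wide background of each library, were lower in K562 at 59 sites and higher at 22. The median ratio of K562 to THP1 was 0.805, and it ranged from 0.160 at FNBP1L to 3.46 at CROCC. At CROCC the THP1 window had 3 copies in the genome and the K562 window 4. The order of strength was hardly shared, as the rank correlation of −log10 p over the 81 sites was 0.154, given without a test because the sites share 2 libraries. At promoters the median ratio was 0.498 (24 sites, 20 of them lower in K562), against 0.869 at the other 57. The intervals of these medians, 0.358 to 0.908 and 0.775 to 0.984, overlap.

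Sites with more enrichment in K562 included CEBPE (ratio 2.40), GPIHBP1 (3.22) and RPP25 (2.61). All 3 were at LSD1 peaks, as were 21 of the 22 sites higher in K562. At GPIHBP1 the summits lay 664 bp apart, and the THP1 window had 6 copies in the genome. On the other side were the promoters of TMEM237, with a fold of 46.2 in THP1 and 8.40 in K562, and HDAC7, a class IIa histone deacetylase gene, with 38.1 and 8.60. GARRE1, with 29.7 and 6.20, was similar. These genes were chosen after their values were seen. The sites without a K562 LSD1 peak, 14 of the 81, had a median ratio of 0.454, and 13 of them were lower in K562. The 67 sites with such a peak had a median ratio of 0.878, and 46 were lower in K562. The intervals of these medians, 0.222 to 0.976 and 0.787 to 0.971, overlap.

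The 8 strongest shared sites were all at LSD1 peaks, beside 82.7% of all shared sites. For these 8, distances are given by the THP1 summits. TIGAR, which encodes a regulator of glycolysis, had a promoter site with a fold of 22.2 in THP1 and 28.1 in K562. IBA57, a gene of iron-sulfur cluster assembly, had 15.9 and 29.3 and was called again in sg-LSD1 cells. So were NBPF1 (16.6 and 10.9) and the site 20.6 kb from the start of KCTD6 (24.3 and 14.03). At FBXO21, an F-box gene, the values were 18.2 and 17.2. The site nearest to INCENP, a gene of the chromosomal passenger complex, lay 14.8 kb from its start and had 13.5 and 13.1. ACVR2A, an activin receptor gene, had 22.3 and 13.6, with the GFI1 core in both windows. The site nearest to H3-7, a histone gene, lay 176.8 kb from its start and had 14.3 and 13.4. Its windows had 2 copies in the genome.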

How the data were processed

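ChIP-seq peak lists of 5 libraries from THP1 and K562 cells were read, and the 2 GFI1 lists of THP1 and sg-NT K562 cells were compared. The authors used Trim Galore 0.6.1 for trimming, Bowtie2 2.5.4 for mapping against GRCh38 and Picard 3.1.0 for removing duplicates. For each library they called peaks at p below 1e-05 with MACS2 2.2.9.1, and they left out blacklisted regions. The MACS2 control is not named in the sources used here. The deposited fold is the ratio of pileup to local background at the summit. The deposited −log10 p and −log10 q are the p-value and q-value of the summit. The deposited score was not used.

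Fragments and local background were solved from fold and −log10 p with a pseudocount of 1, and for 100% of the peaks of both lists a whole number of fragments gave back the −log10 p within 0.01, or within 0.1% of it where it was above 10. The genome-wide level is the lowest value found at 5 or more peaks of a list. Genes and places were taken from GENCODE release 44 by protein-coding transcript starts. Named sites are the 8 strongest peaks of each class, the strongest members of 12 gene lists, the 10 strongest genes with peaks at different sites, and PRTN3, AZU1, ITGAM, GFI1 and CD86. Members, lists, cores and rules were chosen with earlier results of these data known. The overlap was checked with bedtools 2.31.1, and the scripts were tested on simulated data. There, 100% of the simulated peaks, as many as each list has, gave back their fragments. The simulated fragments and local backgrounds did not span the whole range of the data and stayed below those at SMAP2. Software was Python 3.11.15 with pandas 2.3.3, numpy 2.4.6, pysam 0.24.0, scipy 1.17.1 and matplotlib 3.10.9, and samtools 1.23.1. The repeat-masked share was not computed, because the reference sequence carried no mask. The sequence at the PRTN3 site is not reported here.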

Additional observations from a re-analysis of the deposited data

How the results depend on the processing

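Of 104 values from alternative settings of 19 results, 76 lay inside the interval of the main value. The 6 differences between classes whose interval left out 0 kept their sign in all 38 alternatives. Of the 37 alternatives for the 5 motif cores whose interval included 0, 6 had the other sign, 4 for other ETS and 2 for RUNX. No paired analysis was possible because each line had 1 library. With lists of equal size, the THP1 list shortened to its strongest peaks, the shared part was 7.43% of the THP1 and of the K562 peaks, and THP1 only peaks had a median −log10 p of 30.1. The share of K562 genes that were also THP1 genes was then 13.1%. The differences, K562 only minus THP1 only in percentage points, were -11.9 for promoters, -6.72 for the GFI1 core, -3.90 for C/EBP, -3.47 for SPI1-type ETS and -10.4 for SPI1 peaks. A −log10 p of at least 8 gave medians of 12.8 (THP1 only) and 12.5 (K562 only) and an LSD1 difference of 78.4 points. In 200 bp windows the differences were -8.51 (GFI1), 33.5 (GATA), 2.60 (RUNX), -3.13 (SPI1-type ETS), -1.26 (other ETS), 4.16 (AP-1) and -9.38 (C/EBP). With shorter cores they were -5.54 (GFI1), 19.4 (GATA), -4.05 (SPI1-type ETS), -4.50 (other ETS) and -3.78 (C/EBP). LSD1 differed by 65.4 points when a GFI1 and an LSD1 summit had to be at most 200 bp apart in place of a 1 bp overlap, and by 80.9 points among peaks at or above the median −log10 p, where SPI1 differed by -6.10 and GFI1 in sg-LSD1 cells by 13.2 points. That last setting was chosen after seeing the data, as were the starts of all transcripts of protein-coding genes (-16.5 points for promoters), peaks with a summit window found once in the genome, and the lists without the dense stretch of chromosome 1. The last of these left the THP1 overlap at 2.38%. A pseudocount of 0 gave no ratio, as 2.41% of K562 peaks could be solved. The cause of these changes was not tested beyond what each setting alters.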

Other observations

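Genes of other lineages and of general cell functions were also counted by their nearest peaks. Of 27 lymphoid genes, 4 (14.8%) were nearest to a THP1 peak, beside 13.8% of all genes, and 0 to a K562 peak, beside 2.4%. The THP1 peaks lay near MS4A1, which encodes CD20 (fold 8.18), CTLA4, an inhibitory receptor of T cells (fold 8.59), CD247, the zeta chain of the T cell receptor (fold 6.60), and PAX5, the B cell regulator (fold 5.00). Of 85 ribosomal protein genes, 9 (10.6%) were nearest to a THP1 peak and 0 to a K562 peak, with the strongest at RPL31 (fold 19.5). Clustered histone genes had 5 of 73 (6.85%) near a THP1 peak and 0 near a K562 peak, and genes named ZNF 46 of 508 (9.06%) and 10 (1.97%). The strongest of these was ZNF330 in THP1 (fold 23.7) and ZNF77 in K562 (fold 13.8), and 10 of the 11 K562 peaks near ZNF genes lay at LSD1 peaks, beside 77.5% of all K562 only peaks.

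Some genes were nearest to several THP1 peaks. IRF2BP2, which encodes a transcriptional corepressor, was the nearest gene of 9 THP1 peaks and of 1 K562 peak. The THP1 folds ran from 4.002 to 14.1, and 1 of the 9 sites was called in both lines. SMAP2, which lies in the stretch of chromosome 1 with raised local background, was nearest to 8 THP1 peaks. ARID2, FAM120B, PREX1 and TCF7L2 were among those nearest to 6. In K562, TPTE was nearest to 7 peaks and UBE2H, a ubiquitin-conjugating enzyme gene, to 3, and 139 genes in THP1 and 3 in K562 had at least 3 peaks. Chromosome 7 held 10.3% of the K562 only peaks (43 of 417, interval 7.75 to 13.6) and 4.47% of the THP1 only peaks (interval 3.82 to 5.22). It was picked from all chromosomes after the values were seen, and copy number in the 2 lines was not analysed. Summit windows with at least 2 exact copies in the genome made up 5.47% of THP1 only, 8.15% of K562 only and, by their THP1 summits, 12.3% of shared peaks.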
